A study of Mus musculus with 6 samples.

Results

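The genes described here encode the eukaryotic initiation factors (Eif) and elongation factors (Eef) of protein synthesis in mouse heart ventricle, together with the kinases, inhibitors and methyltransferases that carry the same gene names. Members were all probe sets whose gene symbol starts with Eif or Eef followed by a digit, without Eif2s3x and Eif2s3y, which gave 63 genes of the 20239 tested. The array data come from ventricles of male mice of the background strain 129/Sv at 3.5 weeks of age. The tested mice were labelled Hspa4-/-, and the mice they were set against were Hspa4+/+, or wild type, with 3 mice in each group and no treatment named in either. Hspa4 encodes a chaperone of the Hsp110 family, and neither the labels nor the design text say how its alleles were inactivated. The labels name no second allele, transgene or Cre. Each array was taken to be 1 mouse. The arrays labelled Hspa4-/- are called mutant 1 to 3, which repeats the label and no more, and the others wild type 1 to 3. The comparison asks which of these genes differ in the young heart when Hspa4 is missing.

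Translation begins when eIF2 carries the initiator tRNA to the small ribosomal subunit, with eIF1, eIF1A and eIF3, and when the eIF4F complex brings the capped mRNA. In eIF4F, eIF4E binds the cap, eIF4G is the scaffold and eIF4A unwinds the mRNA. The inhibitors called 4E-BPs hold eIF4E away from eIF4G until mTORC1 phosphorylates them, and the eIF2 alpha kinases lower initiation under stress by phosphorylating eIF2. Elongation needs eEF1A, which delivers tRNAs, the eEF1B subunits that recharge it, and eEF2, which moves the ribosome and is switched off by its kinase eEF2K. Heart and skeletal muscle use the eEF1A2 form after birth, while most other tissues use eEF1A1.

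The array labelled mutant 1 went against its label. Hspa4 read 9.33, 6.63 and 6.75 on the log2 scale on mutant arrays 1 to 3, against 9.74, 9.50 and 9.48 on wild-type arrays 1 to 3. The groups did not overlap, but mutant 1 lay near wild type, and Xist was 7.68 there and at most 5.69 elsewhere. Over 6 arrays Hspa4 differed by −2.01 on the log2 scale (limma, adjusted p = 0.263; exact two-sided permutation p = 0.1, which is the lowest value possible with 3 arrays a group). On 5 arrays, without the array labelled mutant 1, the difference was −2.89 (limma, adjusted p = 9.37e-06). The test was therefore run on all 6 arrays and on these 5. Members given by array have both differences, and those given by their difference alone have it on 5 arrays. Wild type 2 also stood apart among the members, being the highest wild-type array in 31 of 63, or 49.2%, where it was so in 32.5% of all genes. The SD over all genes on an array was 1.20, 1.25 and 1.27 on mutant arrays 1 to 3 and 1.23, 1.25 and 1.19 on wild-type arrays 1 to 3, so wild type 2 had the widest wild-type spread of values. The cardiac genes expected of a ventricle were high on every array, with a mean log2 value over 8 cardiomyocyte markers from 12.12 to 12.18 on the mutant arrays and from 11.96 to 12.05 on the wild-type arrays.

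No factor gene passed the test across all genes (limma, Benjamini-Hochberg adjusted p under 0.05) in either form, so all differences below are measured values and not calls. On 6 arrays 0 of 63 passed, beside 0% of all genes. On 5 arrays 0 of 63 passed, beside 0.44% of all genes, and the smallest adjusted p among the members was 0.0665, for the eEF2 kinase gene Eef2k. The widest differences on 5 arrays were those of the inhibitor gene Eif4ebp1 at 0.64, Eef2k at 0.48, Eif3f at 0.45, Eif4h at 0.42 and Eef2 at 0.40 on the log2 scale, all higher on the mutant arrays, and of Eef1e1 at −0.38, lower there. For all 63 genes the 95% interval of the difference lay within −1 and 1 on the log2 scale, a 2-fold difference, in both forms. It lay within −0.5 and 0.5, or 1.41-fold, in 55 genes on 6 arrays and 50 on 5.

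At an unadjusted p under 0.05, 5 members were higher and 4 lower on 6 arrays, or 7.94% and 6.35% of 63. The share of all genes was 5.64% higher and 5.53% lower, so the members' shares lay near it. The higher ones were Eif3f, Eif4ebp1, Eef1a2, Eef2 and Eef2k, and the lower ones Eif4a2, Eif4g3, Eef1e1 and the pseudogene Eif1-ps1. On 5 arrays 10 members were higher, or 15.9%, beside 8.55% of all genes, and 4 were lower, or 6.35%, beside 6.36%. The lower ones were Eif1a, Eif4a2, Eif4g3 and Eef1e1. The number of higher members depended on single arrays. On 6 arrays it was 11 without wild type 2, 10 without mutant 1, and 2 without wild type 1 or wild type 3. On 5 arrays it was 19 without wild type 2, 6 without wild type 1 or wild type 3, and 5 without mutant 3. The lower members on 5 arrays were 2 without mutant 2, mutant 3 or wild type 1. Apart from leaving out mutant 1, all-gene shares at this level were not computed for these settings. The number of all genes past the adjusted threshold (limma) also moved, from 0 on 6 arrays to 112 without wild type 2 and 89 without mutant 1. The moves in the members' counts were thus not shown to be particular to them. The groups did not overlap on 6 arrays in 4 members that were higher (6.35%, beside 6.08% of all genes), Eif4ebp1, Eef2k, Eif4b and Eif5a, and 5 that were lower (7.94%, beside 9.07%), Eif4a2, Eif4g3, Eif4e, Eef1e1 and Eif1-ps1. On 5 arrays they did not overlap in 19 that were higher (30.2%, beside 14.4% of all genes) and 6 that were lower (9.52%, beside 18.9%). The median log2 difference of the members was 0.04 on 6 arrays and 0.06 on 5, against −0.01 and −0.02 over all genes. The all-gene value depended on expression level. Without the lowest 50% of genes by mean, the 6-array medians were 0.044 for the 56 members kept and 0.022 over all genes kept.

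**Figure D1:**
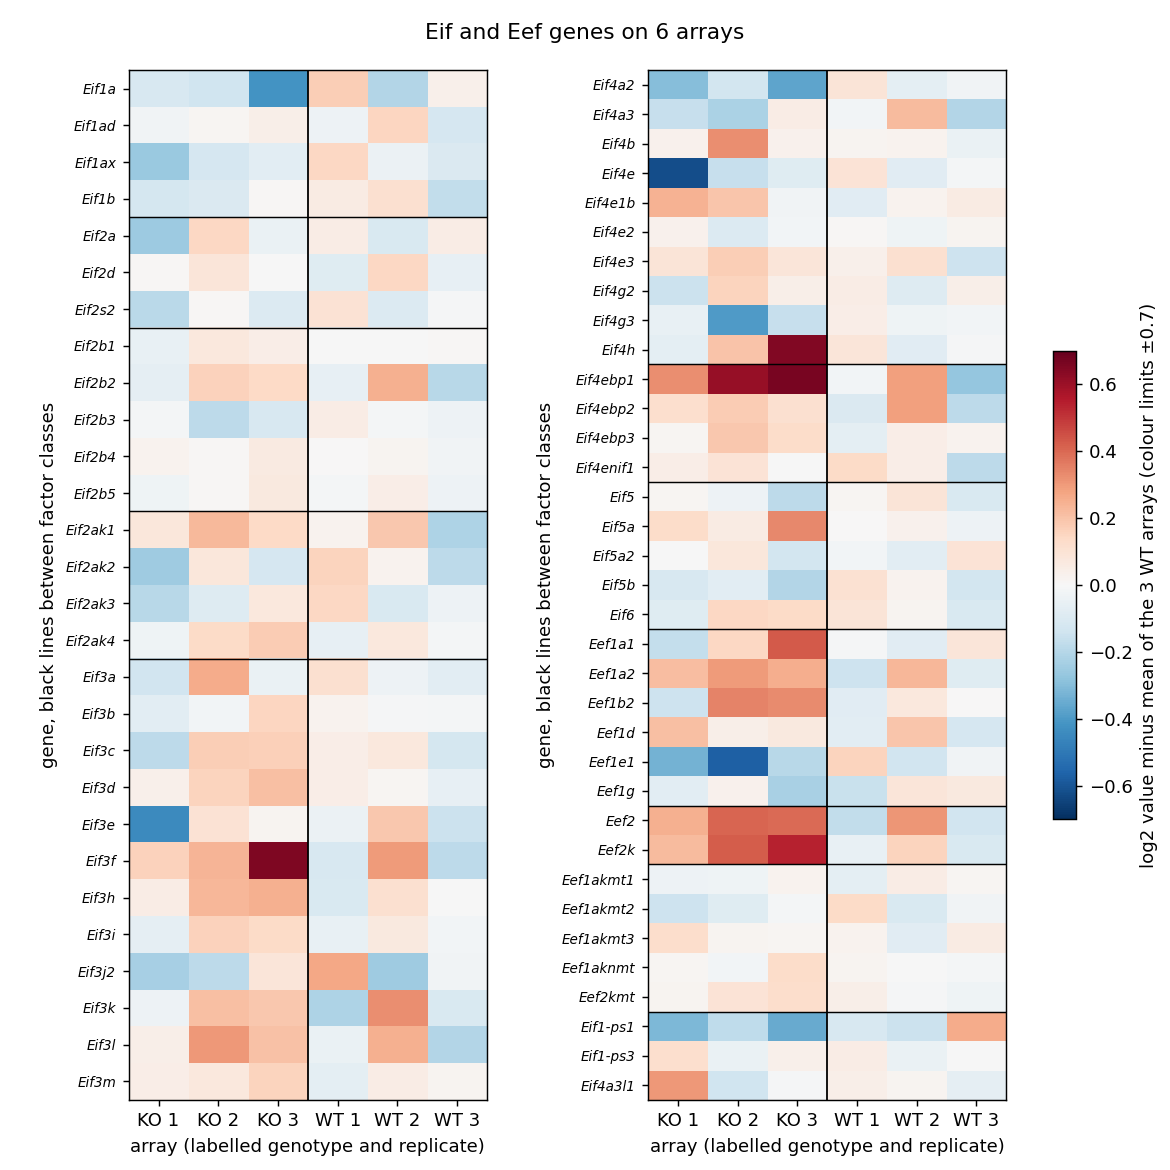
Log2 value of each of the 63 genes on each array minus the mean of the 3 wild-type (WT) arrays, as colour, with genes in rows by factor class and arrays labelled Hspa4-/- (KO, mutant 1 to 3) left of wild type. Most eIF3 rows and the Eif4ebp1, Eef2 and Eef2k rows are red on KO 2 and KO 3, and WT 2 is also red in Eif3f, Eif3k, Eef2 and Eif4ebp1.

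Among the cap-binding inhibitors, Eif4ebp1 was higher on every mutant array than on any wild-type array. The gene encodes 4E-BP1, the main mTORC1-controlled inhibitor of eIF4E. It read 8.42, 8.71 and 8.77 on mutant arrays 1 to 3, against 8.08, 8.39 and 7.83 on wild-type arrays 1 to 3. Mutant 1 lay close to wild type 2, and mutant 2 and 3 stood clear of all wild-type arrays. The log2 difference was 0.53 (SE 0.14; limma, adjusted p = 0.245) on 6 arrays and 0.64 (SE 0.14; limma, adjusted p = 0.0877), or 1.56-fold, on 5. Eif4ebp3, a further member of the 4E-BP family, read 6.43, 6.61 and 6.55 on the mutant arrays and 6.35, 6.46 and 6.44 on the wild-type arrays, and the groups met only through mutant 1. Its difference was 0.11 on 6 arrays and 0.16 on 5 (limma, adjusted p = 0.635 and 0.343). Eif4ebp2 and Eif4enif1, whose product carries eIF4E into the nucleus, had differences of 0.15 and 0.05 on 5 arrays, and their groups overlapped.

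The class of the eIF4F complex and its helicase partners also held genes with related symbols, not all of them parts of the complex. Its genes differed in both directions, from −0.28 to 0.42 on 5 arrays. Eif4e, the cap-binding protein that 4E-BP1 holds, was lower on every mutant array, at 6.06, 6.52 and 6.60 on mutant arrays 1 to 3 against 6.77, 6.60 and 6.66 on wild-type arrays 1 to 3. Mutant 3 and wild type 2 were nearly level, and the array labelled mutant 1 was far below the rest. Its difference of −0.29 on 6 arrays (SE 0.13; limma, adjusted p = 0.446) was −0.12 on 5 (SE 0.08; limma, adjusted p = 0.510), so its size rested largely on the array labelled mutant 1. The log2 value of Eif4ebp1 minus that of Eif4e, a within-array ratio chosen after the values were seen, was 2.37, 2.20 and 2.17 on the mutant arrays and 1.31, 1.79 and 1.17 on the wild-type arrays. Its lack of overlap follows from that of the genes it was built from and adds nothing to them.

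Eif4g3, which encodes an eIF4G scaffold, read 9.02, 8.67 and 8.91 on mutant arrays 1 to 3, against 9.12, 9.04 and 9.05 on wild-type arrays 1 to 3. Every mutant array lay below every wild-type array, mutant 1 by little. The log2 difference was −0.20 on 6 arrays (SE 0.09; limma, adjusted p = 0.442) and −0.28 on 5 (SE 0.09; limma, adjusted p = 0.183). Eif4a2, an eIF4A helicase gene, read 9.42, 9.59 and 9.35 on the mutant arrays and 9.81, 9.65 and 9.70 on the wild-type arrays. Here too the groups did not overlap, with differences of −0.27 (SE 0.08; limma, adjusted p = 0.276) and −0.25 (SE 0.09; limma, adjusted p = 0.256) on 6 and 5 arrays.

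Eif4h, whose product stimulates the eIF4A helicase, went the other way. It read 8.84, 9.10 and 9.55 on mutant arrays 1 to 3, against 8.99, 8.82 and 8.89 on wild-type arrays 1 to 3. Mutant 3 was much the highest and mutant 1 lay among the wild-type arrays. The difference was 0.26 on 6 arrays (SE 0.15; limma, adjusted p = 0.585) and 0.42 on 5 (SE 0.12; limma, adjusted p = 0.171). The other 6 genes of this class (Eif4a3, Eif4b, Eif4e1b, Eif4e2, Eif4e3 and Eif4g2) had differences from −0.08 to 0.18 on 5 arrays. Of the class, 1 gene was higher and 2 lower at an unadjusted p under 0.05 on 5 arrays, and 0 of 10 passed. The shares of all genes were 8.55% higher, 6.36% lower and 0.44% passing, so counts in so small a class say little. Eif4a1 and Eif4g1 were not analysed here.

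**Figure D2:**
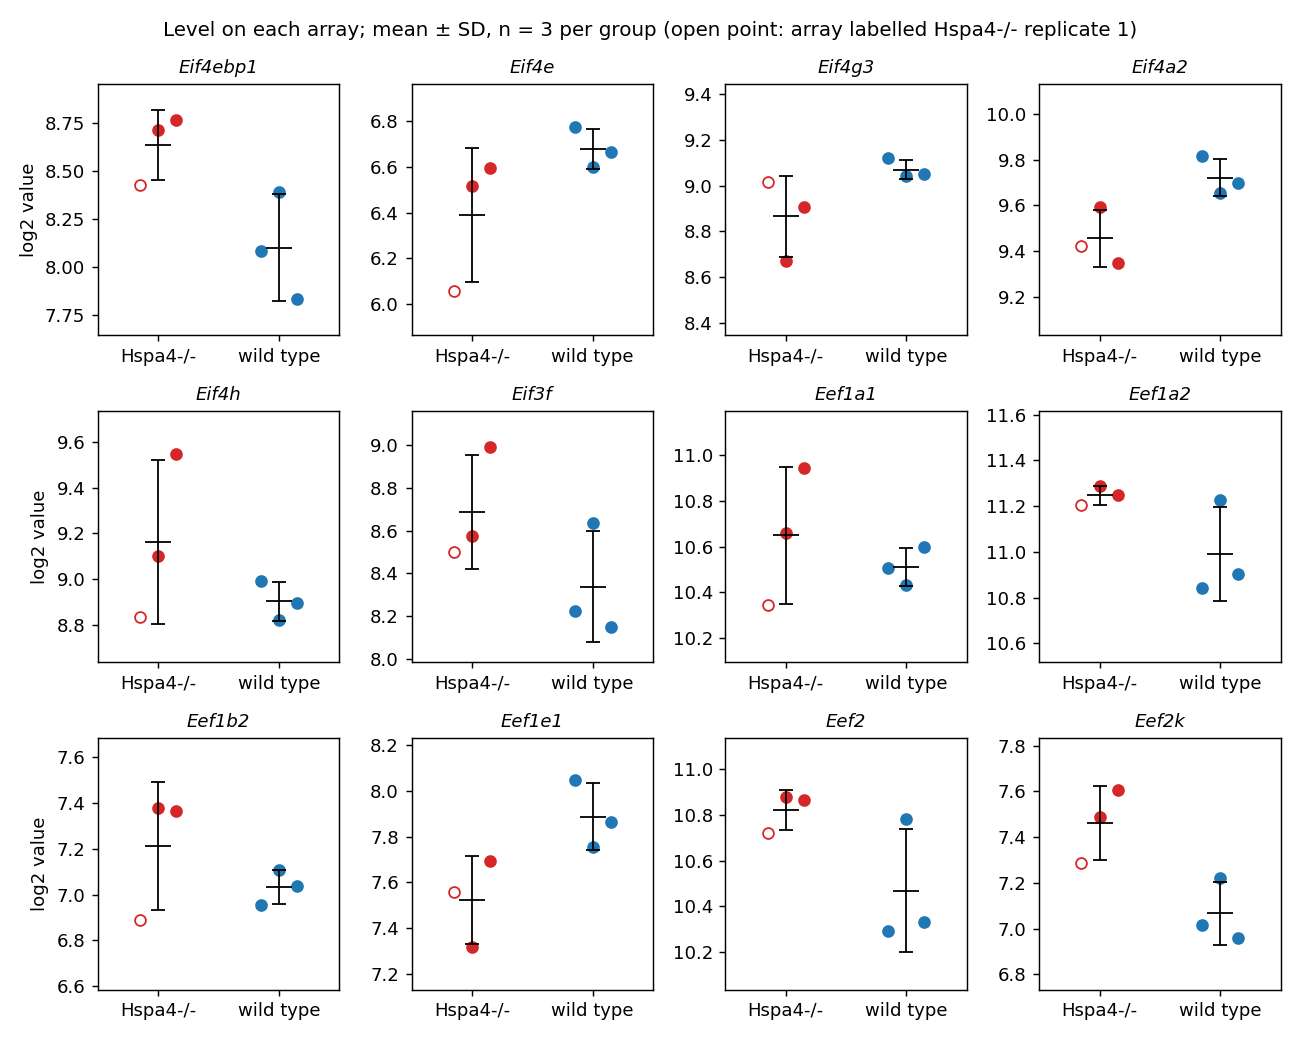
Log2 value of 12 members on each array, with red points for arrays labelled Hspa4-/- (open for mutant 1), blue points for wild type, and the mean ± SD of 3 arrays per group in black. Eif4ebp1 and Eef2k lie higher and Eif4g3, Eif4a2 and Eef1e1 lower on all 3 mutant arrays than on the wild-type arrays, while wild type 2 reaches the mutant level of Eef1a2 and Eef2.

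The eIF3 complex, the large scaffold on the small ribosomal subunit, was the most populous class, with mostly positive differences. Of 12 genes 10 had a positive difference on 6 arrays and 11 on 5, with medians of 0.08 and 0.16, beside 45.8% and 43.3% of all genes with a positive one. The all-gene shares cover genes of every level, and shares among genes of like level were not computed. At an unadjusted p under 0.05, 1 was higher on 6 arrays and 3 on 5, beside 5.64% and 8.55% of all genes, and 0 passed after adjustment. Eif3f read 8.50, 8.57 and 8.99 on mutant arrays 1 to 3, against 8.23, 8.63 and 8.15 on wild-type arrays 1 to 3. Wild type 2 lay above mutant 1 and 2, so the groups overlapped. The difference was 0.35 (SE 0.15; limma, adjusted p = 0.433) on 6 arrays and 0.45 (SE 0.16; limma, adjusted p = 0.249) on 5. Eif3h, another subunit, read 9.85, 10.03 and 10.05 on the mutant arrays and 9.69, 9.91 and 9.80 on the wild-type arrays, with mutant 2 and 3 above all wild-type arrays and mutant 1 below wild type 2. Its difference was 0.18 (SE 0.08; limma, adjusted p = 0.469) on 6 arrays and 0.24 (SE 0.08; limma, adjusted p = 0.218) on 5. The third of them on 5 arrays was Eif3d, named after its values were seen, at 0.18 (SE 0.07; limma, adjusted p = 0.278). The only negative difference on 5 arrays was that of Eif3j2, at −0.05, and since mice also have a closely similar Eif3j1, its signal is uncertain. Eif3e, named after its values were seen, showed how much mutant 1 could weigh. It read 7.16, 7.71 and 7.62 on the mutant arrays and 7.56, 7.79 and 7.45 on the wild-type arrays. Its difference was −0.11 on 6 arrays and 0.06 on 5.

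In elongation, Eef2 and its kinase gene were higher together. Eef2, which encodes the translocase eEF2, read 10.72, 10.88 and 10.87 on mutant arrays 1 to 3, against 10.29, 10.78 and 10.33 on wild-type arrays 1 to 3. Wild type 2 lay at the mutant level, above mutant 1, and the other wild-type arrays were well below. The difference was 0.35 on 6 arrays (SE 0.12; limma, adjusted p = 0.323) and 0.40 on 5 (SE 0.14; limma, adjusted p = 0.218), or 1.32-fold. Eef2k, the calcium and calmodulin-dependent kinase that inhibits eEF2, read 7.29, 7.49 and 7.61 on the mutant arrays and 7.02, 7.22 and 6.96 on the wild-type arrays. All mutant arrays were above all wild-type arrays. The difference was 0.39 on 6 arrays (SE 0.10; limma, adjusted p = 0.234) and 0.48 on 5 (SE 0.09; limma, adjusted p = 0.0665), or 1.40-fold.

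Both eEF1A genes had higher values on mutant 2 and 3 than on any wild-type array. Eef1a2, the muscle and neuron form, read 11.21, 11.29 and 11.25 on mutant arrays 1 to 3, against 10.84, 11.23 and 10.90 on wild-type arrays 1 to 3. The mutant arrays were close together and wild type 2 was level with them. Its difference was 0.26 on 6 arrays (SE 0.10; limma, adjusted p = 0.373) and 0.28 on 5 (SE 0.11; limma, adjusted p = 0.295). Eef1a1, the widespread form, read 10.34, 10.66 and 10.94 on the mutant arrays and 10.51, 10.43 and 10.60 on the wild-type arrays. Mutant 1 was the lowest of all 6 arrays and mutant 3 the highest, and the difference was 0.14 on 6 arrays (SE 0.13; limma, adjusted p = 0.775) and 0.29 on 5 (SE 0.10; limma, adjusted p = 0.220). Processed copies of Eef1a1 in the genome could share its probes, so its level is uncertain.

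The exchange factor gene Eef1b2, whose product recharges eEF1A with GTP, had a like pattern. It read 6.89, 7.38 and 7.36 on mutant arrays 1 to 3, against 6.96, 7.11 and 7.04 on wild-type arrays 1 to 3. Mutant 1 was again the lowest array and mutant 2 and 3 were the highest. The difference was 0.18 on 6 arrays (SE 0.12; limma, adjusted p = 0.668) and 0.34 on 5 (SE 0.07; limma, adjusted p = 0.0877). The other eEF1B genes, Eef1d and Eef1g, differed by 0.06 and −0.10 on 5 arrays.

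Eef1e1 had the largest negative difference of all 63 genes in both forms. Despite its name, its product is a scaffold protein of the complex that holds several aminoacyl-tRNA synthetases together. It read 7.56, 7.32 and 7.69 on mutant arrays 1 to 3, against 8.05, 7.75 and 7.86 on wild-type arrays 1 to 3. The groups did not overlap, although mutant 3 came near wild type 2. The difference was −0.37 on 6 arrays (SE 0.11; limma, adjusted p = 0.272) and −0.38 on 5 (SE 0.12; limma, adjusted p = 0.205).

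**Figure D3:**
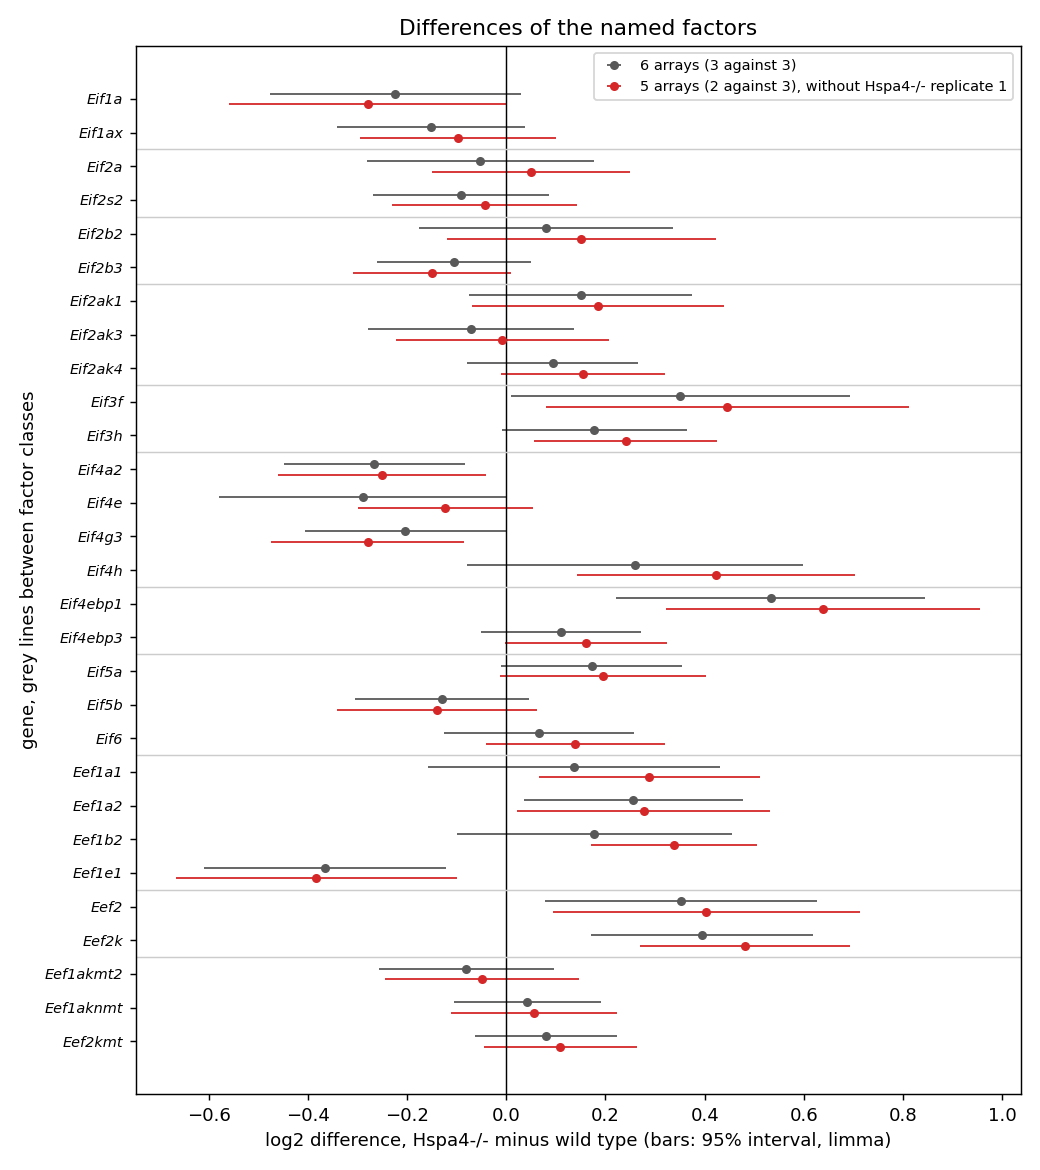
Log2 difference, Hspa4-/- minus wild type, with its 95% interval from limma for the 29 members named by rule, on 6 arrays (grey) and on 5 without the array labelled mutant 1 (red). Intervals of Eif4ebp1, Eef2, Eef2k, Eif3f and Eef1a2 lie above 0 and those of Eif4a2, Eif4g3 and Eef1e1 below 0 in both forms, before adjustment over all genes.

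The genes of eIF2 and related initiator tRNA factors, of the exchange factor eIF2B and of the eIF2 alpha kinases differed by small amounts. The first class held Eif2s2, Eif2a and Eif2d, of which only Eif2s2 encodes an eIF2 subunit. Eif2d differed by 0.04 on 5 arrays. Over the 12 genes of these classes 0 had an unadjusted p under 0.05 in either form. Of all genes 5.64% were higher and 5.53% lower at that level on 6 arrays, and 8.55% and 6.36% on 5. For so few genes, 0 lies near those shares. Eif2s2, the beta subunit of eIF2, read 8.74, 8.94 and 8.83 on mutant arrays 1 to 3, against 9.03, 8.83 and 8.92 on wild-type arrays 1 to 3, and the groups overlapped. Its difference was −0.09 on 6 arrays and −0.04 on 5, the second with a 95% interval from −0.23 to 0.14. Eif2a, an initiator tRNA-binding factor separate from eIF2, read 8.41, 8.82 and 8.63 on the mutant arrays and 8.73, 8.57 and 8.72 on the wild-type arrays, and the groups overlapped. Its difference was −0.05 on 6 arrays and 0.05 on 5 (limma, adjusted p = 0.909 and 0.836). Eif2s1, the alpha subunit that the kinases phosphorylate, was not analysed here.

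Among the eIF2B subunits, which reload eIF2 with GTP, Eif2b3 read 7.04, 6.87 and 6.95 on the mutant arrays and 7.11, 7.05 and 7.02 on the wild-type arrays. Only mutant 1 reached the wild-type range, and the difference was −0.10 on 6 arrays and −0.15 on 5 (limma, adjusted p = 0.642 and 0.365). Eif2b2 read 7.20, 7.42 and 7.40 on the mutant arrays and 7.21, 7.51 and 7.07 on the wild-type arrays, with the highest value on wild type 2, and differed by 0.08 on 6 arrays and 0.15 on 5 (limma, adjusted p = 0.864 and 0.604). The remaining subunit genes Eif2b1, Eif2b4 and Eif2b5 differed by 0.04 to 0.06 on 5 arrays, and Eif2b4 varied by only 0.0884 on the log2 scale over all 6 arrays.

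Of the kinases, Eif2ak3 encodes PERK, which senses stress in the endoplasmic reticulum. It read 6.80, 6.91 and 7.07 on the mutant arrays and 7.14, 6.89 and 6.96 on the wild-type arrays, and the groups overlapped. Its difference was −0.07 on 6 arrays and −0.01 on 5, the second with a 95% interval from −0.22 to 0.21. Eif2ak4, the amino acid sensor GCN2, read 6.61, 6.77 and 6.82 on the mutant arrays and 6.58, 6.72 and 6.63 on the wild-type arrays, and mutant 2 and 3 were above wild type by little. Its difference was 0.09 on 6 arrays and 0.16 on 5 (limma, adjusted p = 0.731 and 0.364). Eif2ak1, the heme-regulated kinase, read 7.36, 7.51 and 7.42 on the mutant arrays and 7.31, 7.47 and 7.07 on the wild-type arrays, with wild type 3 low, and differed by 0.15 on 6 arrays and 0.18 on 5 (limma, adjusted p = 0.650 and 0.489). Eif2ak2, the double-stranded RNA sensor PKR, differed by −0.02 on 5 arrays.

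Of the 4 genes grouped under eIF1 and start codon scanning, 3 had a negative difference on 5 arrays, where 56.7% of all genes did. Eif1a, an eIF1A gene, read 7.48, 7.46 and 7.18 on mutant arrays 1 to 3, against 7.77, 7.39 and 7.63 on wild-type arrays 1 to 3. Wild type 2 lay among the mutant arrays, and the difference was −0.22 on 6 arrays and −0.28 on 5 (limma, adjusted p = 0.506 and 0.335). Its X-linked relative Eif1ax read 8.21, 8.36 and 8.40 on the mutant arrays and 8.62, 8.43 and 8.37 on the wild-type arrays, with overlap, and differed by −0.15 and −0.10 (limma, adjusted p = 0.564 and 0.657). The sequences of these genes are alike, so probes may not tell them apart. Eif1ad and Eif1b differed by 0.03 and −0.05 on 5 arrays.

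The late initiation factors also stayed within narrow limits. Eif5a, whose hypusine-bearing product helps the ribosome past difficult stretches, read 7.03, 6.96 and 7.24 on mutant arrays 1 to 3, against 6.91, 6.94 and 6.87 on wild-type arrays 1 to 3. The groups did not overlap, by a small margin, and the difference was 0.17 on 6 arrays and 0.20 on 5 (limma, adjusted p = 0.473 and 0.363). Eif5b, the GTPase that joins the ribosomal subunits, read 8.58, 8.61 and 8.48 on the mutant arrays and 8.79, 8.71 and 8.56 on the wild-type arrays, with overlap, and differed by −0.13 on 6 arrays and −0.14 on 5 (limma, adjusted p = 0.604 and 0.512). Eif6, which keeps the large subunit from joining too early, read 8.36, 8.59 and 8.57 on the mutant arrays and 8.53, 8.46 and 8.33 on the wild-type arrays. Only mutant 1 lay inside the wild-type range, and the difference was 0.07 on 6 arrays and 0.14 on 5 (limma, adjusted p = 0.850 and 0.455). Eif5 and Eif5a2 differed by −0.11 and −0.03 on 5 arrays.

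The 5 methyltransferase genes, whose products modify elongation factors, differed by −0.05 to 0.11 on 5 arrays. Eef2kmt, which methylates eEF2, read 7.34, 7.41 and 7.44 on the mutant arrays and 7.35, 7.31 and 7.28 on the wild-type arrays, with mutant 1 among the wild-type arrays. Eef1akmt2, an eEF1A methyltransferase, read 6.41, 6.46 and 6.54 on the mutant arrays and 6.68, 6.44 and 6.52 on the wild-type arrays. Eef1aknmt, another, read 6.74, 6.71 and 6.85 on the mutant arrays and 6.74, 6.72 and 6.71 on the wild-type arrays, so the groups overlapped in both of these genes. The differences of Eef2kmt, Eef1akmt2 and Eef1aknmt were 0.08, −0.08 and 0.04 on 6 arrays and 0.11, −0.05 and 0.06 on 5, with an adjusted p at or above 0.502 on 5 arrays (limma). The pseudogene Eif1-ps1, named after its values were seen, was lower at an unadjusted p under 0.05 on 6 arrays, with a difference of −0.28 there (limma, adjusted p = 0.382) and −0.26 on 5 (limma, adjusted p = 0.370). The pseudogene Eif1-ps3 and the Eif4a3 copy Eif4a3l1 differed by −0.01 and −0.08 on 5 arrays.

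Many mRNAs of the translation apparatus begin with a C followed by a run of C and T, the terminal oligopyrimidine (TOP) motif through which mTORC1 controls their translation. Bases around the annotated transcript start were set beside the values, although the arrays measure RNA level and not translation. The 6 factors shown were picked, without a rule, from the 40 members with a positive difference on 5 arrays. Of these 6, 3 have the run and 3 do not. The sequences are 10 bases before and 20 bases from the start, on the transcript strand, from RefSeq on GRCm38.p6. Capitals mark a C within 3 bases of the start that is followed by at least 4 C or T. Such a run was counted from that C even where C or T also came before it.
Eif3f, chr7:108934405-108934434, plus strand: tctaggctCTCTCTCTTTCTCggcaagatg
Eif3l, chr15:79075213-79075242, plus strand: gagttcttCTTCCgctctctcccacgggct
Eef1a1, chr9:78481705-78481734, minus strand: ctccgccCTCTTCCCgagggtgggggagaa
Eef1a2, chr2:181156996-181157025, minus strand: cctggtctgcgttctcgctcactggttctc
Eef1b2, chr1:63176821-63176850, plus strand: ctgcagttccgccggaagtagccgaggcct
Eef2, chr10:81176621-81176650, plus strand: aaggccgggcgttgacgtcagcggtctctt
Eif3f had the longest marked run, 13 bases. C or T also stood directly before the marked runs of Eif3f, Eif3l and Eef1a1, so the whole stretches begin earlier. In Eef1a2, Eef1b2 and Eef2 no such run began within 3 bases of the start, although 1 began further into the Eef2 window. Of the 63 genes 45 had at least 1 start in the RefSeq table. A run counted from a C within 3 bases of a start was found in 8 of those 45 genes, or 17.8%. The shares were 13.5% of all 27025 genes of the table and 40.6% of 69 genes with symbols of cytosolic ribosomal proteins. Exactly at a start the counts were 1 of 45, or 2.22%, beside 3.01% of all genes and 21.7% of the ribosomal protein genes. The median log2 difference was 0.07 on 6 arrays and 0.11 on 5 for the 8 genes with a run, and 0.03 and 0.05 for the other 37. Only the transcript strand was searched, and annotated starts may miss the true first base. A gene without a marked run may therefore still have the motif.

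The lists of neighbouring pathways held no gene that passed the test in either form, and counts here are at an unadjusted p under 0.05. Of all genes 5.64% were higher and 5.53% lower at that level on 6 arrays, and 8.55% and 6.36% on 5. Cytosolic ribosomal protein genes were taken by symbol, which also let in relatives and other genes with such symbols, as Rps3a3 and Rps19bp1. Of these 45 genes, 5 were higher and 2 lower on 6 arrays, and 11, Rps3a3 among them, and 3 on 5. Leaving out mutant 1 thus more than doubled the higher count, and the median difference was 0.03 and 0.04. Rplp0 and Rplp1, the stalk proteins that recruit elongation factors, differed on 5 arrays, as do all genes named from these lists, by 0.56 (SE 0.12; limma, adjusted p = 0.0918) and 0.35 (SE 0.07; limma, adjusted p = 0.0780). Of 15 mTORC1 pathway genes, 4 were higher and 0 lower on 6 arrays and 5 and 0 on 5, with medians of 0.14 and 0.11, among them Mlst8 at 0.30 (limma, adjusted p = 0.125) and Tbc1d7 at 0.62 (limma, adjusted p = 0.154). Of 17 integrated stress response targets and eIF2 phosphatase genes, which follow eIF2 phosphorylation, 0 were higher and 0 lower in both forms, with a median of 0.01 in each. The smallest p there were those of Slc7a11 at −0.12 and Ppp1r15a at 0.14 (limma, adjusted p = 0.465 and 0.550).

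Of 21 genes of cytosolic aminoacyl-tRNA synthetases and scaffolds, 1 was higher and 2 lower on 6 arrays and 2 and 2 on 5. This list was not limited to the complex that the Eef1e1 product joins. Its smallest p on 5 arrays were those of Vars at 0.26 and Nars at −0.23 (limma, adjusted p = 0.196 for both). Of 7 termination and recycling genes 0 were higher and 1 was lower in both forms, on 5 arrays the ribosome recycling gene Abce1, at −0.32 (SE 0.08; limma, adjusted p = 0.1), with Gspt2 at −0.09. Of 7 genes of poly(A)-binding proteins and partners 0 were higher and 1 was lower on 6 arrays, and 1 and 0 on 5, the higher one Pabpc1, at 0.28 (SE 0.07; limma, adjusted p = 0.115), with Larp4 at −0.13. Mitochondrial translation factors had 0 higher and 2 lower of 10 on 6 arrays and 2 and 2 on 5, with Mtrf1l at −0.39 and Mtif2 at −0.28 (limma, adjusted p = 0.143 and 0.209). Genes of selenocysteine, diphthamide and hypusine, listed with the tRNA-processing gene Trpt1, had 3 higher and 0 lower of 11 on 6 arrays and 4 and 0 on 5. Those higher on 6 arrays were Trpt1, Secisbp2 and Dph1. The smallest p on 5 arrays were those of the diphthamide gene Dph1 at 0.27 and the hypusine gene Dohh at 0.28 (limma, adjusted p = 0.140 and 0.188). Kinases and phosphatases acting on factors had 1 higher and 1 lower of 7 on 6 arrays and 1 and 0 on 5, with Csnk2a2 at 0.32 and Mknk2 at 0.36 (limma, adjusted p = 0.107 and 0.364).

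The differences were also read under other settings. After quantile normalisation, which gives all arrays 1 distribution, the 5-array difference was 0.59 for Eif4ebp1, 0.43 for Eef2k, 0.39 for Eif3f, 0.35 for Eef2, 0.28 for Eef1b2, 0.21 for Eef1a2 and −0.44 for Eef1e1, with 0 of 63 past the threshold. Wild type 2 bore more on the tests. It was the highest wild-type array in 49.2% of the members, and in those leaving it out raises the difference by arithmetic. Without it, Eef2 alone of the 63 passed on the other arrays of the 6 (0.51, SE 0.08; limma, adjusted p = 0.0445), beside 112 of all 20239 genes. On 5 arrays, leaving it out set mutant 2 and 3 against wild type 1 and 3, and 8 members passed, all higher (limma, adjusted p from 0.00860 to 0.0478). These were Eif4ebp1, Eef2, Eef2k, Eef1a2, Eef1b2, Eif3f, Eif3k and Eif3l, or 8 of 63, beside 875 of all 20239 genes. With limma's array weights Eif4ebp1, Eef2k and Eef1b2 passed on 5 arrays (limma, adjusted p from 0.0370 to 0.0477), beside 321 of all 20239 genes.

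**Figure D4:**
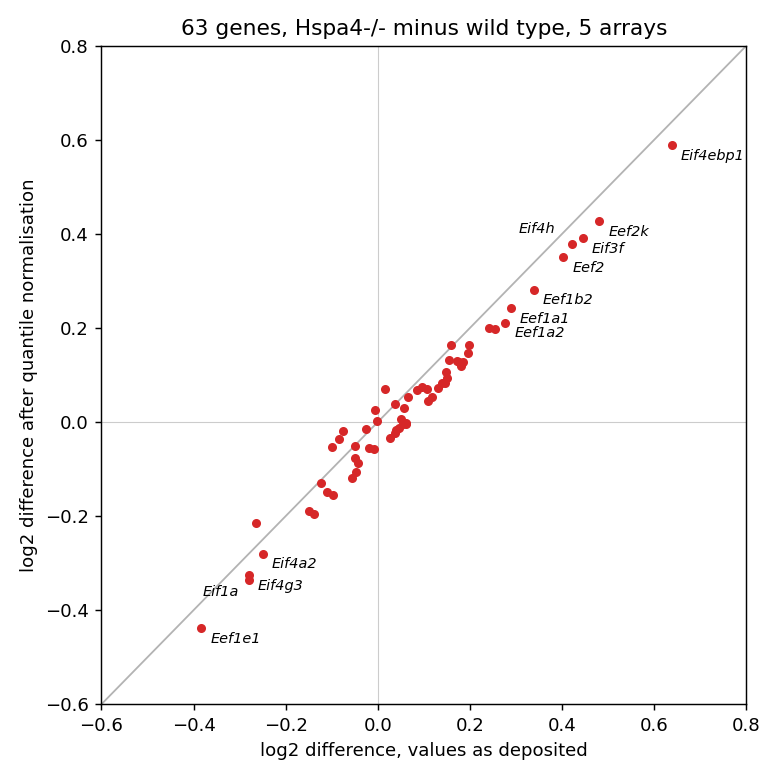
Log2 difference, Hspa4-/- minus wild type, of the 63 genes on 5 arrays as deposited (horizontal axis) and after quantile normalisation of the values (vertical axis), with a grey line where both are equal. Most points lie slightly below the line, as Eif4ebp1 does at 0.64 and 0.59.

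Markers of other cells also differed between the groups. The mean log2 value over 5 macrophage markers was 7.41, 7.41 and 7.32 on mutant arrays 1 to 3, against 7.68, 7.56 and 7.69 on wild-type arrays 1 to 3, and did not overlap. That over 5 atrial markers was 7.07, 7.40 and 7.47, against 6.75, 6.98 and 6.75, and that over 6 skeletal muscle markers 7.20, 7.36 and 7.28, against 7.04, 7.09 and 7.11, in the same order of arrays. The last pair of lists rested on single genes. Without Nppa, which differed by 1.80 on 6 arrays and 2.32 on 5, the atrial mean was 6.48, 6.62 and 6.46 on the mutant arrays and 6.28, 6.49 and 6.32 on the wild-type arrays. Without Acta1, which differed by 1.01 and 1.32, the skeletal muscle mean was 6.82, 6.78 and 6.77 on the mutant arrays and 6.74, 6.68 and 6.83 on the wild-type arrays. Both then overlapped in both forms, while the macrophage mean without Mrc1 and the cardiomyocyte mean without Myl2 did not. Leaving out the gene with the largest difference was chosen after seeing the data. The cardiomyocyte markers given above were higher on every mutant array as well. In whole ventricle, fewer cells of a type and less RNA per cell cannot be told apart. The lists for fibroblasts, endothelial cells, lymphocytes, erythroid cells and adipocytes overlapped between the groups in both forms, and smooth muscle and pericyte markers did so on 6 arrays. The part of these lists in the factor values was not tested.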

How the data were processed

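Per the labels, ventricle RNA was measured as labelled cDNA on 6 Affymetrix Mouse Gene 1.0 ST arrays. The deposited values are log2 expression per probe set and array, made by the authors with R 2.13.0 and affy, per the submitters' processing notes. How background, normalisation and probe summary were handled is not stated there, signal over background is unknown, and precision is limited by the number of arrays.

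Probe sets were named from the platform's probe table: 20239 of 21225 had 1 symbol, 0 several and 986 none, and all 20239 gene numbers were in the RefSeq table of GRCm38.p6. Pairs of arrays shared 11 to 30 identical values. All genes were fitted with limma 3.58.1 (lmFit and eBayes, R 4.3.3), with Benjamini-Hochberg adjustment over 20239 genes, a threshold of 0.05 and no filter, and the fit was tested on simulated data. P-values cover the spread between these arrays. The factor classes, the 9 pathway lists, the 10 marker lists and the members were chosen with earlier results of these data known. Members named with all values were those past the threshold, the 2 with the smallest p per class and form, and 13 core genes, of which 10 were in the table. Eif3e was added to them after its values were seen.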

Additional observations from a re-analysis of the deposited data

How the results depend on the processing

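The count of members past the threshold (limma) was 0 in both forms under low-value filters, quantile normalisation, subtracted array medians, an intensity trend and the replicate block. It became 3 with array weights on 5 arrays, lay between 0 and 1 on 6 arrays with each array left out, and between 0 and 8 on 5. At an unadjusted p under 0.05, members higher numbered 5 on 6 arrays, 10 with array weights, and 2 to 11 with each array left out, and 10 on 5 arrays, 5 to 19 with each left out. Lower ones numbered 3 to 4 on 6 arrays and 2 to 5 on 5 with each left out. All-gene shares at this level were computed only for the main 6-array and 5-array forms. Wild type 2 set both upper ends of the higher counts; leaving out wild type 1 or wild type 3 gave 2 on 6 arrays and 6 on 5. The members' median ranged from 0.02 to 0.06 on 6 arrays and from 0.05 to 0.08 on 5 with each array left out. Over all genes the count past the threshold on 5 arrays was 89, against 2 without wild type 3, 6 without wild type 1, 19 and 25 without mutant 3 and 2, 875 without wild type 2, 36 with subtracted medians, 134 with the replicate block, 157 and 160 with low-value filters and 321 with array weights. On 6 arrays it was 0, against 2 with either low-value filter or the replicate block, 115 with array weights, 112 without wild type 2 and 89 without mutant 1. Replicate numbers did not pair the arrays: deviations from the group means of same-numbered arrays correlated at −0.172, 0.0916 and −0.249, and mutant 1 correlated best with wild type 3 (0.33). With the replicate block 5 members were higher and 5 lower on 6 arrays at an unadjusted p under 0.05, and 7 and 3 on 5. Signs turned, for differences near 0, in Eif2a on 6 arrays with array weights (0.0187) and, on 5 arrays, in Eif2ak3 with subtracted medians (8.69e-04) and the replicate block (0.064), and in Eif2s2 (0.00836) and Eef1akmt2 (0.0165) with the block. With each array left out of 6, differences ranged across 0 in Eif2a (−0.151 to 0.0497), Eif2b2 (−0.0166 to 0.205), Eif2ak3 (−0.144 to 0.00112), Eef1a1 (−0.0107 to 0.289) and Eef1aknmt (−0.00138 to 0.0713). Out of 5 they did so in Eif2a (−0.0449 to 0.144), Eif2s2 (−0.0967 to 0.0098), Eif2ak3 (−0.0911 to 0.0747), Eef1akmt2 (−0.103 to 0.0165) and Eef1aknmt (−0.0166 to 0.129). The cause was not tested.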
